A study of Mus musculus with 6 samples.

Results

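A set of 10 genes of costimulation and immune checkpoint signalling was examined in RAW264.7 cells given molybdenum disulfide (MoS2) or phosphate-buffered saline (PBS). They were Cd80, Cd86, Cd274, Pdcd1lg2, Icosl, Cd276, Vsir, Sirpa, Lgals9 and Cd28, taken by gene symbol from the 55401 genes of the count table. The rule matches symbols and uses no measured value, but the list was chosen with earlier results of these data known. All 10 were found, and 9 passed the low-count filter. The cells are a mouse macrophage-like line that was transformed with Abelson leukaemia virus, labelled wild type, and all 6 libraries come from this 1 line. Of these, 3 were from cells given PBS and 3 from cells given MoS2, a layered metal sulfide, at 6.25 µg/ml. No source used here states the length of exposure. Nothing in the labels tells whether the replicates came from separate cultures, and the p-values therefore speak only for the spread between these libraries, which may be technical.

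A macrophage that presents antigen to a T cell also shows it surface ligands that raise or lower the T cell response. CD80 and CD86 bind the activating receptor CD28 and the inhibitory receptor CTLA-4, and ICOS ligand binds ICOS. PD-L1 (Cd274) and PD-L2 (Pdcd1lg2) bind PD-1 and restrain T cells, and B7-H3 (Cd276) and VISTA (Vsir) belong to the same immunoglobulin family. SIRP-alpha (Sirpa) is a receptor on the macrophage itself, which is held back from engulfing cells that carry CD47. Galectin-9 (Lgals9) is a sugar-binding protein and a ligand of TIM-3.

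Upstream sequence is shown for 4 genes, because Cd274 and Lgals9 were the members with the largest rises, Pdcd1lg2 is the neighbour and relative of Cd274 that stayed near the detection limit, and Cd276 was lower with MoS2. RefSeq promoter entries (GRCm38.p6) were found for 7 of the 10 genes, and not for Cd86, Sirpa and Cd28. Each run below is the 250 bases before the RefSeq start, 5′ to 3′ on the strand of the gene, at chr19:29367188-29367437 (plus strand) for Cd274, chr11:78984925-78985174 (minus) for Lgals9, chr19:29410669-29410918 (plus) for Pdcd1lg2 and chr9:58555034-58555283 (minus) for Cd276. The RefSeq start can differ from that of the annotated gene (GENCODE M21) used for the counts. Of the 7 windows, those of Cd276 and Cd80 lie wholly within the span of that gene, and those of Lgals9 and Icosl reach into it. Capitals mark matches to the motifs named in the next paragraph.
Cd274: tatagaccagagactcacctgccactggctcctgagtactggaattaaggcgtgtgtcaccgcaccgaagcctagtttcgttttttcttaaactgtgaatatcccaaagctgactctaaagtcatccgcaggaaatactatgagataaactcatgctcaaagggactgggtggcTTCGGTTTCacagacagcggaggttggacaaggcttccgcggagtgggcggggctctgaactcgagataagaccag
Lgals9: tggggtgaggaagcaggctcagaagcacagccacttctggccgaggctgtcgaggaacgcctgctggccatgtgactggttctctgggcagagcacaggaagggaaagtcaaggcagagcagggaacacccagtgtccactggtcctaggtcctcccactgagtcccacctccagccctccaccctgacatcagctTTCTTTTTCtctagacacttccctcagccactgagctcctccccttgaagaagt
Pdcd1lg2: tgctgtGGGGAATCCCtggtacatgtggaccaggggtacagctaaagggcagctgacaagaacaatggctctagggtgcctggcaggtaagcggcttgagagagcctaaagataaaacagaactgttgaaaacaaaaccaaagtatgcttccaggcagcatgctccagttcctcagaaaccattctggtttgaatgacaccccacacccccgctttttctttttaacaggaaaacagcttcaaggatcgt
Cd276: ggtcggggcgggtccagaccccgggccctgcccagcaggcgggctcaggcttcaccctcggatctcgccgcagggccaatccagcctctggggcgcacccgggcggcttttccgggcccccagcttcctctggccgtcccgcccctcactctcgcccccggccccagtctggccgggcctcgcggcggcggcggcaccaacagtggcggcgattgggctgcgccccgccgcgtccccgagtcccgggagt

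In all 5 motifs were searched on both strands, namely the interferon-stimulated response element core GAAANNGAA, the STAT element TTCNNNGAA, the AP-1 site TGANTCA, the antioxidant response element core TGACNNNGC and the NF-kB consensus. The interferon element core stood at -76 to -68 from the start of Cd274 (TTCGGTTTC, reverse strand) and at -54 to -46 from that of Lgals9 (TTCTTTTTC, reverse strand). Of all 32851 windows of this length, 7.13% held that core. Pdcd1lg2 held 1 NF-kB match (GGGGAATCCC, at -244 to -235), a motif found in 3.90% of windows, and Cd80 held 1 AP-1 match (TGATTCA, at -42 to -36), found in 6.75%. The STAT and antioxidant motifs, in 7.02% and 10.2% of windows, were in none of the 7 members' windows, and the windows of Icosl, Cd276 and Vsir held none of the 5 motifs. The window of Cd276 had 29 CpG pairs and that of Icosl 23, against 11 for Cd274 and 3 each for Lgals9, Cd80 and Pdcd1lg2, with a median of 6 over all windows. These matches describe letters in a window and are not evidence of binding.

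Total counts ran from 15767618 to 18412762 per library. The 10 most abundant genes took 5.25% to 5.64% of counts in PBS libraries and 18.9% to 19.6% in MoS2 libraries, and the scaling factors of the trimmed mean of M-values (TMM) were 1.31 with PBS and 0.743 to 0.783 with MoS2. Levels are CPM (read counts scaled to a common library size) with these factors. Scaling by library totals in place of TMM lowered every MoS2 over PBS log2 fold change, by a median of 0.77 over all tested genes, so the calls of the members and the counts of the lists are given under both scalings. Neither scaling measures RNA per cell, and fewer cells of a type cannot be told apart from less RNA per cell. Of 12972 genes tested with edgeR's quasi-likelihood test, 80.7% were called at an adjusted p under 0.05, 38.3% higher and 42.4% lower with MoS2. With library totals 18% were higher and 67.7% lower.

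Of the 9 tested members, 3 were called higher (Cd274, Lgals9 and Cd86) and 4 lower (Cd28, Sirpa, Cd276 and Vsir), while Cd80 and Icosl did not pass. That is 77.8% called, close to the 80.7% of all genes, so the number of calls does not set these genes apart. The median log2 fold change of the members was -0.16, against -0.08 for all tested genes. With library totals 3 were higher and 6 lower, the median being -0.94 against -0.85 for all tested genes. In 8 of the 9 the MoS2 and PBS libraries did not overlap in CPM, as in 81.9% of all tested genes.

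**Figure D1:**
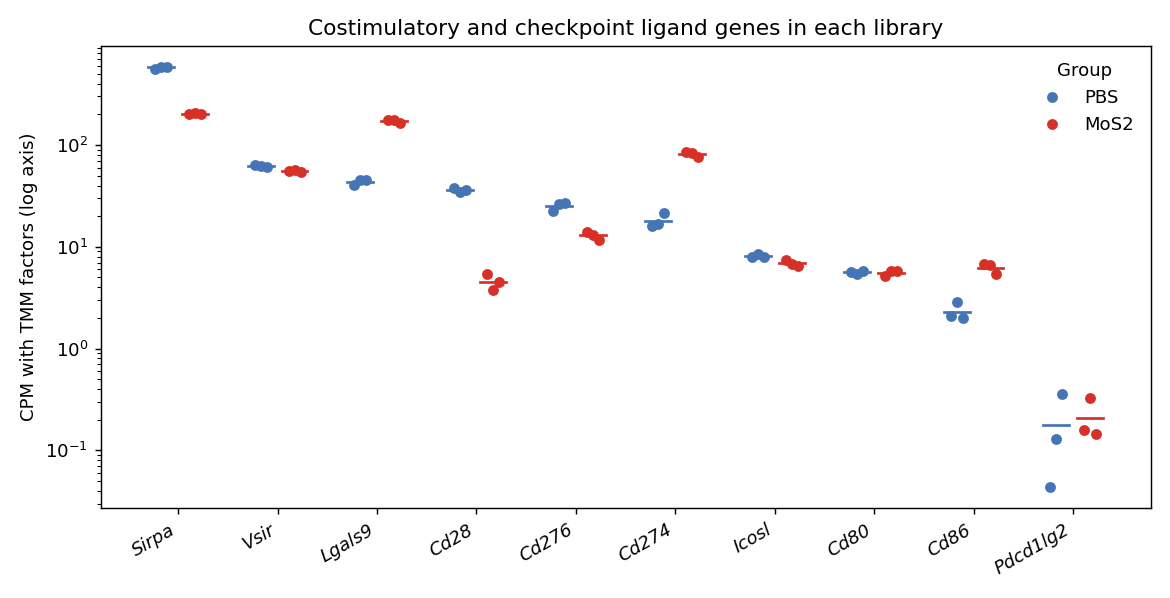
Level of each gene in each library, as CPM with TMM factors on a log axis; points are libraries (3 per group), bars are group means, and genes are ordered by their PBS mean. Cd274, Lgals9 and Cd86 lie higher in all MoS2 libraries, Sirpa, Cd28 and Cd276 lie lower, and Cd80 overlaps.

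Cd274 had the largest rise of the list. The gene lies at chr19:29367455-29388095 of GRCm38, plus strand, with 7 annotated exons (ENSMUSG00000016496.7). It had 16.2, 16.9 and 21.3 CPM in the PBS libraries and 84.7, 83.5 and 76.7 CPM in the MoS2 libraries. Every MoS2 library lay far above every PBS library. The rise was 4.51-fold, or 2.17 ± 0.10 in log2 units (SE; adjusted p by edgeR 1.8e-10). With library totals the log2 fold change was 1.40 (edgeR adjusted p = 3.2e-08). Its fold change stood at percentile 95.5 of all tested genes. An antisense gene, AC119228.1, overlaps 14.1% of the exon bases of Cd274 and had 143 counts in all PBS and 115 in all MoS2 libraries, against 1236 and 3140 for Cd274. No source used here states the strand setting of the counting, so reads of this overlap cannot be told apart.

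Pdcd1lg2, the second ligand of PD-1, begins 22.8 kb beyond the end of Cd274 on the same strand (chr19:29410919-29471161). It had 1, 3 and 8 counts in the PBS libraries and 2, 4 and 2 in the MoS2 libraries. At this depth it was too low to be tested, and no difference was detectable. PBS replicate 3 held 8 of its 12 PBS counts. The 2 ligands of PD-1 thus stood at 22.5 ± 1.19 and 0.107 ± 0.0505 RPKM (CPM per kilobase of gene length; SD, n = 3) in MoS2-treated cells.

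Lgals9 showed a rise of similar size. It lies at chr11:78962974-78984946, minus strand (ENSMUSG00000001123.15). It had 40.5, 45.2 and 45.5 CPM with PBS and 175, 178 and 166 CPM with MoS2. The groups were well separated. Lgals9 rose 3.95-fold, by 1.98 ± 0.07 in log2 units (adjusted p by edgeR 1.6e-11), and by 1.21 with library totals (edgeR adjusted p = 3.9e-09). It was the most abundant transcript of the list per length after MoS2, at 80.9 ± 2.79 RPKM.

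Of the paired ligands of CD28, Cd86 rose and Cd80 did not pass the test. Cd86 (chr16:36603869-36666081, minus strand) had 2.08, 2.87 and 1.98 CPM with PBS and 6.79, 6.57 and 5.41 CPM with MoS2. All MoS2 values exceeded all PBS values, and the log2 fold change was 1.43 ± 0.21 (edgeR adjusted p = 2.9e-05). With library totals it was 0.66 (edgeR adjusted p = 0.0119). Both levels were low, from 44 to 66 reads per PBS library and 74 to 85 per MoS2 library.

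Cd80 lies 1789.5 kb from Cd86 on the same chromosome (chr16:38455561-38496335, plus strand). It had 5.64, 5.43 and 5.80 CPM with PBS and 5.111, 5.755 and 5.778 CPM with MoS2, and the groups overlapped. The log2 fold change was -0.02, with a 95% interval of -0.36 to 0.32 (edgeR adjusted p = 0.920). With library totals Cd80 was called lower, at -0.79 (edgeR adjusted p = 3.5e-04). It had 125 to 130 reads per PBS library and 64 to 79 per MoS2 library.

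The ratio of 2 genes in a library does not depend on scaling. The log2 ratio of Cd86 to Cd80 counts was -1.43, -0.92 and -1.54 in PBS libraries and 0.41, 0.19 and -0.09 in MoS2 libraries. All 3 MoS2 ratios were higher, by 1.46 on average (exact two-sided permutation p = 0.1, the smallest that 3 against 3 can give, adjusted to 0.15 over 3 ratios). Cd80 was the more abundant of the pair with PBS, at 1.52 ± 0.0498 against 0.630 ± 0.133 RPKM (SD, n = 3). With MoS2 they stood at 1.498 ± 0.102 and 1.71 ± 0.202 RPKM, and their ranges overlapped. The log2 ratio of Cd274 to Pdcd1lg2 averaged 6.85 ± 1.08 with PBS and 8.43 ± 0.51 with MoS2 (SD, n = 3). These ratios overlapped between groups (exact permutation p = 0.2, adjusted 0.2), and they rest on the few counts of Pdcd1lg2.

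**Figure D2:**
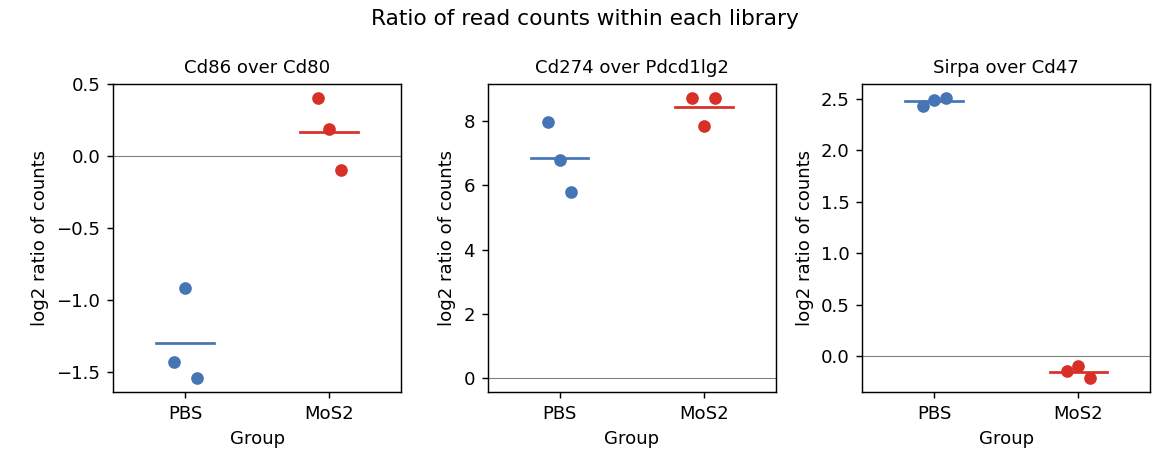
Log2 ratio of read counts of 2 genes within each library, each count raised by 0.5, by group; points are libraries (3 per group) and bars are means. Cd86 over Cd80 is higher in all MoS2 libraries, Cd274 over Pdcd1lg2 overlaps, and Sirpa over Cd47 moves from 2.43 or more with PBS to below 0 with MoS2.

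Icosl, the ligand of ICOS (chr10:78069302-78083913, plus strand), had 7.978, 8.425 and 7.998 CPM with PBS and 7.507, 6.727 and 6.437 CPM with MoS2. The MoS2 libraries were lower without overlap, but the log2 fold change of -0.24 (95% interval -0.55 to 0.07) did not pass (edgeR adjusted p = 0.133). It passed with library totals, at -1.01 (edgeR adjusted p = 1.5e-05), and with upper-quartile factors, at -0.37 (edgeR adjusted p = 0.0282).

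Vsir, which encodes VISTA, a restraint on T cells and myeloid cells (chr10:60346851-60372684, plus strand), had 64.0, 62.4 and 61.2 CPM with PBS and 56.2, 57.4 and 54.0 CPM with MoS2. The difference was small. The MoS2 mean was 89.3% of the PBS mean (-0.16 ± 0.07 in log2 units, adjusted p by edgeR 0.0396). The call was lost without any 1 library other than PBS replicate 3, when the adjusted p by edgeR ran from 0.0538 to 0.1302. With library totals the log2 fold change was -0.94.

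Cd276 (chr9:58524298-58555437, minus strand) encodes B7-H3, for which both activating and inhibitory effects on T cells have been described. It had 22.6, 26.4 and 26.7 CPM with PBS and 14.1, 13.0 and 11.7 CPM with MoS2. Every MoS2 library was lower, and Cd276 fell by 0.97 on the log2 scale (SE 0.11, edgeR adjusted p = 2.3e-06), or by 1.74 with library totals. The predicted gene Gm10657 overlaps 11.4% of its exon bases on the other strand but had only 8 counts in all PBS and 6 in all MoS2 libraries.

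**Figure D3:**
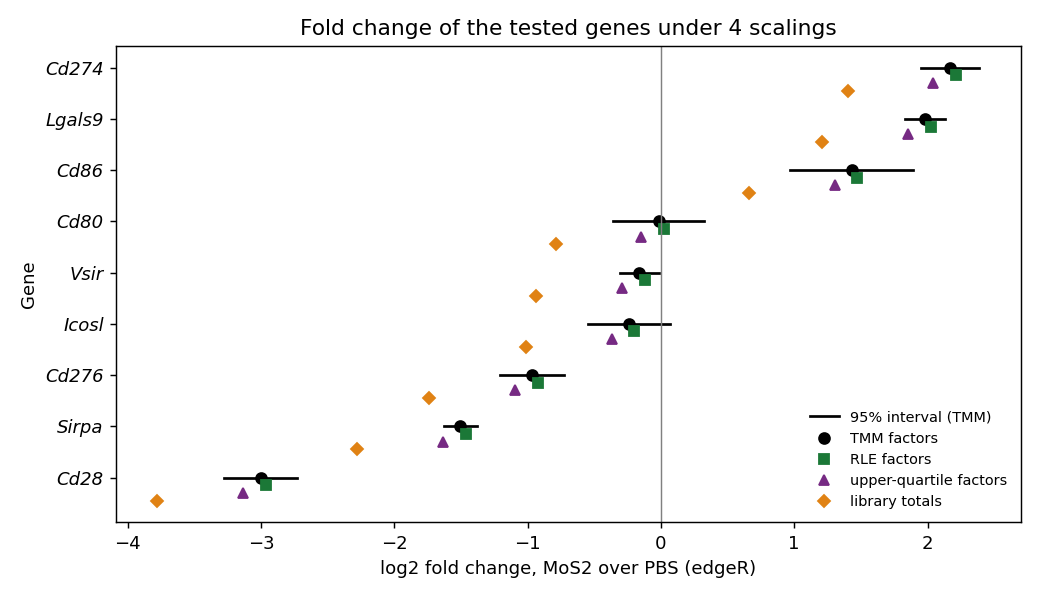
Log2 fold change (MoS2 over PBS, edgeR) of the 9 tested genes under 4 scalings; black points and lines are TMM values with 95% intervals, and other symbols are the alternatives. Cd274, Lgals9 and Cd86 lie above 0 and Cd276, Sirpa and Cd28 below 0 under all 4, while Cd80, Vsir and Icosl lie near 0 with TMM and at -0.79 to -1.01 with library totals.

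Sirpa was the most abundant member in PBS-treated cells, at 118 ± 2.51 RPKM, and lies at chr2:129592835-129632228, plus strand (ENSMUSG00000037902.18). It had 564, 585 and 585 CPM with PBS and 204, 207 and 200.4 CPM with MoS2. The libraries of each group were tight and far apart, and Sirpa fell to 35.3% of the PBS level (log2 fold change -1.50 ± 0.06, edgeR adjusted p = 3.6e-11). With library totals the log2 fold change was -2.28. The related genes Sirpb1a, Sirpb1b and Sirpb1c had at most 3 counts in any library.

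Cd47, the ligand that Sirpa recognises, went the other way. It had 105, 105 and 103 CPM with PBS and 226, 222 and 233 CPM with MoS2, and rose by 1.13 ± 0.06 on the log2 scale (edgeR adjusted p = 6.0e-10), or by 0.35 with library totals. The log2 ratio of Sirpa to Cd47 counts was 2.43, 2.48 and 2.51 with PBS and -0.15, -0.10 and -0.22 with MoS2. All MoS2 ratios were lower, with a mean difference (MoS2 minus PBS) of -2.63 (exact permutation p = 0.1, adjusted 0.15). Downstream of Sirpa act the phosphatases SHP-2 and SHP-1. Ptpn11 (SHP-2) went from 121 ± 4.15 to 55.5 ± 0.336 CPM (log2 fold change -1.12, edgeR adjusted p = 1.4e-09), and Ptpn6 (SHP-1) from 192 ± 4.09 to 153 ± 4.87 CPM (-0.33, edgeR adjusted p = 1.8e-04).

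Cd28 is best known as the costimulatory receptor of T cells, and it had the largest fall of the list. It lies at chr1:60716800-60773359, plus strand (ENSMUSG00000026012.2). It had 38.2, 34.8 and 35.8 CPM with PBS and 5.35, 3.73 and 4.46 CPM with MoS2. All MoS2 libraries were well below all PBS libraries, and their mean was 12.5% of the PBS mean (-3.003 ± 0.13 in log2 units, adjusted p by edgeR 7.6e-11). Only 3.65% of tested genes had a log2 fold change as low or lower. With library totals it was -3.78.

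T cell markers were read beside Cd28. Of 12 such genes 6 had 0 counts in all libraries (Cd2, Cd3d, Cd8a, Cd8b1, Trac and Themis), Cd3e had 1 count in all and Cd3g 8. Lck and Cd5 alone passed the filter, at 5.79 ± 0.699 and 4.15 ± 0.220 CPM with PBS and 10.4 ± 1.24 and 9.05 ± 1.13 CPM with MoS2. With library totals neither was called (log2 fold changes 0.08 and 0.35). The summed level of the list ran from 9.64 to 10.97 CPM with PBS and from 18.7 to 21.1 CPM with MoS2. Lck and Cd5 made up most of it. Cd4 had 11 counts in all PBS and 1 in all MoS2 libraries, and all 8 counts of Cd3g came from 1 MoS2 library. The part of T cell markers in the fall of Cd28 was not tested. Of 8 B cell markers only Cd22 passed the filter (1.69 ± 0.406 and 0.553 ± 0.228 CPM), and none of the 8 fibroblast and epithelial markers did. Dendritic cell markers summed to 6.89 to 8.58 CPM with PBS and 8.67 to 9.29 CPM with MoS2, and the 2 of 8 that were tested moved in opposite directions. Itgax went from 4.68 ± 0.190 to 8.09 ± 0.283 CPM (0.79, or 0.02 and no call with library totals), and Zbtb46 from 2.62 ± 1.04 to 0.596 ± 0.174 CPM (-2.12, edgeR adjusted p = 3.2e-04). Siglech had 26 counts in all PBS libraries and 0 in all MoS2 libraries.

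Macrophage markers were present at high levels. Their summed level was 7376 to 7541 CPM with PBS and 5000.2 to 5242 CPM with MoS2, led by lysozyme (Lyz2), Csf1r and Cd14 in PBS libraries. Of 10 such genes 9 were tested, 2 were higher (Cd68 and Itgam) and 4 lower (Csf1r, Fcgr1, Lyz2 and Aif1). That is 66.7% called, against 80.7% of all tested genes. By library totals 2 were higher and 7 lower. Csf1r went from 1909 ± 64.6 to 513 ± 15.1 CPM (log2 fold change -1.90, edgeR adjusted p = 5.4e-12). The efferocytosis receptor Mertk had 4 counts in all libraries together, and the microglial and macrophage marker Aif1 had at most 2.08 CPM. The part of these markers in the members' changes was not tested.

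Per length, the order of the 10 genes in PBS libraries was Sirpa, Lgals9 (20.5 ± 1.29 RPKM), Vsir (12.5 ± 0.289), Cd276 (6.90 ± 0.627), Cd28 (5.92 ± 0.287), Cd274 (5.00 ± 0.766), Icosl (1.76 ± 0.0547), Cd80, Cd86 and Pdcd1lg2 (SD, n = 3). Cd276 and Cd28 overlapped in their ranges, as did Cd28 and Cd274. In MoS2 libraries the order was Lgals9, Sirpa (41.5 ± 0.671 RPKM), Cd274, Vsir (11.1 ± 0.345), Cd276 (3.54 ± 0.323), Cd86, Cd80, Icosl (1.49 ± 0.1198), Cd28 (0.737 ± 0.133) and Pdcd1lg2, where Cd86, Cd80 and Icosl overlapped. Cd274 moved from rank 6 to rank 3 and Cd28 from rank 5 to rank 9.

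Genes that work with these ligands were taken from 6 further lists. Of their tested genes 100%, 100%, 73.3%, 70%, 84.2% and 76.9% were called, in the order below, against 80.7% of all tested genes. The 2 lists at 100% hold only 5 and 3 tested genes. Over all tested genes 38.3% were higher and 42.4% lower, with a median of -0.08 (18% and 67.7% with library totals). The counts below are therefore not read as results about the lists. Of 14 partner receptors and other family genes only 5 passed the filter, with 2 higher and 3 lower (1 and 3 by library totals). Their median was -0.45. Besides Cd47, Pdcd1, which encodes PD-1 itself, was higher at 6.17 ± 1.07 against 3.68 ± 0.685 CPM (log2 fold change 0.75, edgeR adjusted p = 0.00402), but had -0.03 and no call with library totals. Havcr2, which encodes the galectin-9 receptor TIM-3, went from 26.0 ± 1.69 to 19.0 ± 1.42 CPM (-0.45, edgeR adjusted p = 8.2e-04). Tnfrsf14, the ligand of BTLA known as HVEM, had 197 counts in all PBS and 8 in all MoS2 libraries. Icos, which lies 204.6 kb from Cd28, had 91 and 17 counts. Ctla4, Btla, Vtcn1, Btnl2 and Vsig4 had 6 counts or fewer in all libraries together.

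Among the TNF family costimulators 3 of 8 matched genes were tested, and 2 were higher and 1 lower (1 and 1 with library totals). Without MoS2 replicate 2, when 13412 genes passed the filter, 2 of this list were lower. Cd40, the receptor for CD40 ligand of T cells, had 7.67, 7.99 and 10.4 CPM with PBS and 42.1, 42.5 and 45.6 CPM with MoS2. It was far higher in all MoS2 libraries (log2 fold change 2.32 ± 0.12, edgeR adjusted p = 3.5e-10), or 1.55 with library totals. Tnfsf9, the 4-1BB ligand, went from 68.6 ± 5.93 to 118 ± 4.17 CPM (0.78), but had 0.01 and no call with library totals. Tnfsf13b, the B cell factor BAFF, was lower at 2.16 ± 0.265 against 6.15 ± 0.683 CPM (-1.51).

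Of 15 tested genes among other inhibitory or adhesion ligands and receptors, 5 were higher and 6 lower (3 and 10 by library totals). Their median was -0.07. Lilr4b and the inhibitory receptor gene Lilrb4a rose by 2.24 and 1.80, though as near-identical neighbours their counts are uncertain. The inhibitory receptor genes Pirb and Siglece were lower. Pirb had 381 counts in all PBS and 4 in all MoS2 libraries (-5.65, edgeR adjusted p = 3.4e-08), and Siglece 182 and 20 (-2.34). Galectin-1 (Lgals1) rose by 2.17 from 214 ± 12.5 to 966 ± 4.70 CPM, and galectin-3 (Lgals3) by 0.84, with no call by library totals. Among genes that carry inhibitory signals 3 were higher and 4 lower of 10 tested (0 and 8 with library totals). The SRC-restraining kinase Csk (-1.46), Ptpn11 and the Csk anchor Pag1 (-1.07) were lower, and the adaptor Fyb higher (0.82, or 0.05 with library totals).

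**Figure D4:**
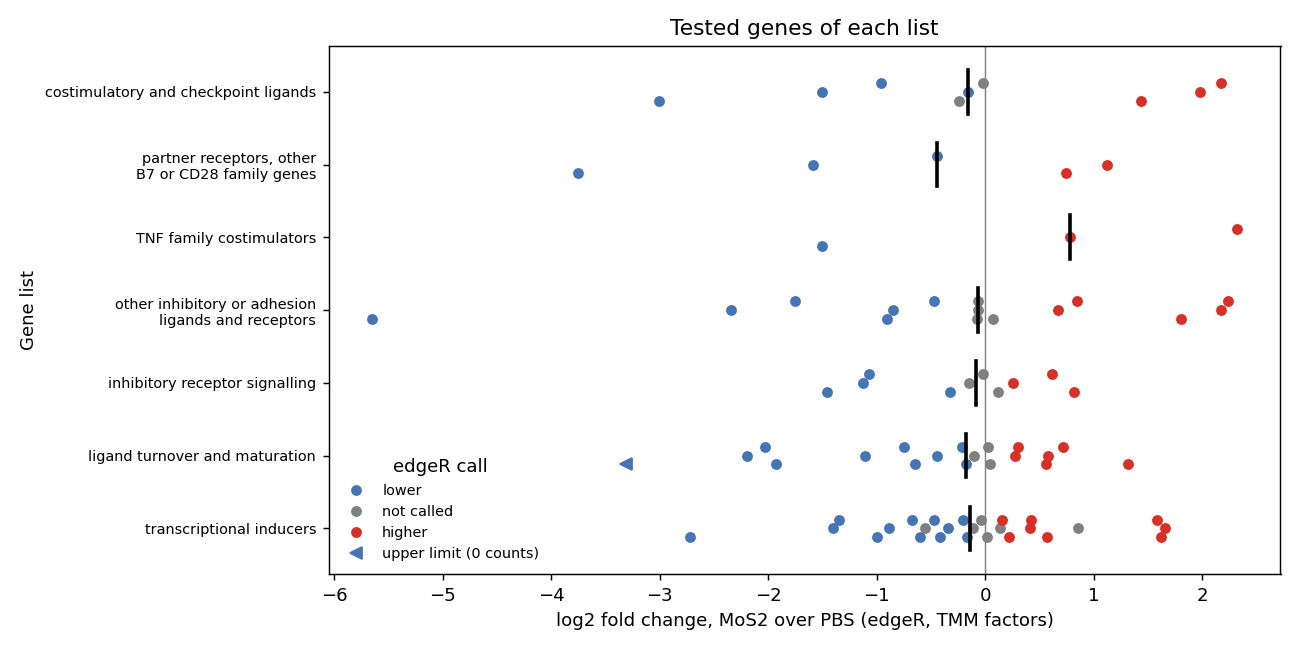
Log2 fold change (MoS2 over PBS, edgeR with TMM factors) of each tested gene, by list; point colour is the call, black bars are list medians, and the triangle is an upper limit for a gene with 0 counts in all MoS2 libraries. Each of the 7 lists holds genes called in both directions, and 6 of their medians lie between -0.45 and -0.07.

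Of 19 tested genes that act on the ligand proteins, 6 were higher and 10 lower (1 and 17 by library totals). Their median was -0.18. The sheddases Adam10 and Adam17, which cut many surface proteins, went from 199.7 ± 11.2 to 48.8 ± 1.74 CPM and from 338 ± 1.12 to 88.8 ± 6.40 CPM (log2 fold changes -2.03 and -1.93, edgeR adjusted p = 1.1e-11 and 1.5e-11). The COP9 signalosome subunit Cops5, a deubiquitinating enzyme described for PD-L1, rose by 1.32. Cmtm6, which keeps PD-L1 at the cell surface, had 69.3 ± 2.97 CPM with PBS and 50.8 ± 2.70 CPM with MoS2 (-0.45, edgeR adjusted p = 6.3e-05). Cmtm4 of the same list went the other way, from 55.7 ± 3.71 to 83.1 ± 4.99 CPM (0.58, edgeR adjusted p = 7.8e-06). With library totals Cmtm4 was called lower (-0.20). March1, a ubiquitin ligase known to remove CD86 from the surface, had 23, 12 and 18 counts in the PBS libraries and 0 in each MoS2 library, at least 9.96-fold lower against a floor of 3 counts over the group.

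Genes tied to the transcriptional induction of this family, inhibitors such as Socs3 included, gave 8 higher and 12 lower of 26 tested (3 and 22 by library totals). Their median was -0.14. Ifngr1, the ligand-binding chain of the interferon-gamma receptor, was lower at 5.94 ± 0.278 against 39.2 ± 3.81 CPM (log2 fold change -2.72, edgeR adjusted p = 8.1e-11). Irf1, a known inducer of Cd274, went from 13.5 ± 0.914 to 5.07 ± 1.18 CPM (-1.40). The AP-1 subunit Jun, the NF-kB subunit Rel and the cytokine signalling inhibitor Socs3 rose by 1.62, 1.59 and 1.66. With library totals they rose by 0.85, 0.81 and 0.89. Of the other NF-kB subunits, Rela (-0.996) and Relb (-0.60) were lower, and Nfkb2 (0.57) and Nfkb1 (0.15) higher. With library totals Rela, Relb, Nfkb2 and Nfkb1 were all lower (-1.77, -1.37, -0.20 and -0.62). Icos, Ptpn6, Cmtm6, Cmtm4, March1, Irf1, Pirb, Siglece, Rela, Relb, Nfkb1 and Nfkb2 were named after their values were seen. So were the genes near 0 and the markers beyond the 3 most abundant of each list.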

How the data were processed

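RNA of 6 libraries was sequenced as paired-end reads (NEBNext Ultra kit, Illumina NovaSeq, per the labels' protocols). The submitters' processing notes list 3 tools, with no role or order: featureCounts 1.6.1, HISAT2 2.1.0 and fastp 0.20.0. The deposited table holds raw read counts per gene, with gene length, and no normalization by the authors. The notes name GRCh38, but the identifiers are mouse, and 54349 of 55401 match GENCODE M21 (GRCm38) in version and coordinates. Columns were matched to samples by letter (M, c) and replicate number. No source used here states the strand or multi-mapping setting.

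The counts were tested with edgeR 4.0.16 (quasi-likelihood F test, TMM factors, default low-count filter, treatment as the only term, Benjamini-Hochberg over all 12972 tested genes) in R 4.3.3, a procedure tested on simulated data. The simulated data had few changed genes, as many up as down. They therefore do not test the scaling under a shift in composition as large as the one seen here. The SE is the log2 fold change over the square root of F and is approximate. RPKM is TMM-scaled CPM over the deposited length. No 2 replicate libraries agreed within sampling noise. Alternatives were other scalings, filters and thresholds, DESeq2 1.42.0, limma-voom (limma 3.58.1), a replicate term and leaving out each library. Named genes are all members and up to 4 tested genes per list with the smallest adjusted p, and the 3 most abundant of each marker list, besides those said to be chosen later; 1 gene that the rule names is not reported here. Of 164 list entries 161 matched. The members and lists were chosen with earlier results of these data known.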

Additional observations from a re-analysis of the deposited data

How the results depend on the processing

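Cd274, Lgals9, Cd86, Cd276, Sirpa and Cd28 kept their direction and their call under all 16 alternative settings. Their log2 fold changes ran from 1.40 to 2.29, 1.21 to 2.03, 0.66 to 1.61, -1.74 to -0.89, -2.28 to -1.46 and -3.78 to -2.88. Vsir was called under 5 of the 16 and not under 11. Cd80 changed sign with RLE factors (0.0234), with DESeq2 (0.0233) and without MoS2 replicate 1, its values without each library running from -0.0509 to 0.0402, and it was not called in any of these. Without a low-count filter Pdcd1lg2 had 0.15 (edgeR adjusted p = 0.909). The number of members called ran from 6 to 9. With library totals 2334 genes were higher and 8786 lower, against 4964 and 5502 with TMM, because that scaling lowers MoS2 levels as a whole, and 10 of the 12 counts for the other lists moved by over 1.5 times, as did 1 of 12 without MoS2 replicate 2. Same-numbered libraries did not deviate together (r of -0.03, 0.01 and -0.20 across genes), so the numbers were not taken as pairs. The highest r were between other numbers, at 0.21 for PBS replicate 3 with MoS2 replicate 2 and 0.20 for PBS replicate 1 with MoS2 replicate 3. A batch shared under another numbering was not tested. With the replicate block 10203 genes and 6 members were called, Vsir (-0.16, edgeR adjusted p = 0.0913) being the only member to lose its call, and the ratios within libraries kept their differences of 1.46, 1.57 and -2.63 (exact sign-flip p no smaller than 0.25). Pdcd1lg2 and the ratio that uses it are limited by depth: without PBS replicate 3 that ratio differed by 1.05, and without PBS replicate 1 by 2.13.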

Other observations

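The nearest tested gene on each side of each member, leaving out genes that overlap it, was looked at after the data were seen. Plgrkt, which encodes a plasminogen receptor, lies 0.1 kb from Cd274, and had 46.8 CPM with PBS and 59.5 CPM with MoS2. Its log2 fold change was 0.35 ± 0.08 (edgeR adjusted p = 0.00150), or -0.43 with library totals, against 2.17 and 1.40 for Cd274. On the other side of Pdcd1lg2, Ric1 had -0.38 with TMM and -1.15 with library totals. The antisense gene A930007I19Rik, which overlaps Pdcd1lg2 in its span and shares 0 exon bases with it, had 156 counts in all PBS and 23 in all MoS2 libraries.

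Beside means the nearest tested gene without overlap here, at up to 386.1 kb (Gm5416 to Cd86). Lyrm9, Eaf2, Stk35, Stoml1 and Slc29a3 lie 116.1, 126.8, 168.3, 261.8 and 339.4 kb from their members. Beside Lgals9 (1.98, or 1.21 with library totals), Lyrm9 had -0.94 and -1.71 and Ksr1 had -2.82 and -3.57. Beside Sirpa (-1.50 and -2.28), the interleukin-1 beta gene Il1b, 221.7 kb away, rose from a mean of 0.160 to 9.001 CPM (5.75 and 4.99), and Stk35 had 0.12 and -0.65. Beside Cd80 (-0.02 and -0.79), Adprh had 0.17 (edgeR adjusted p = 0.0595) and -0.60, and Timmdc1 had 0.72 and -0.06. Beside Cd86 (1.43 and 0.66), Eaf2 went from 0.102 to 1.73 CPM, and Gm5416 from 0 counts with PBS to 3.57 CPM. Beside Icosl (-0.24 and -1.01), Dnmt3l had 1.29 and 0.52 and D10Jhu81e had 0.28 and -0.49. Beside Cd276 (-0.97 and -1.74), Nptn had -1.23 and -2.0004 and Stoml1 had -0.99 and -1.77. Beside Vsir (-0.16 and -0.94), Psap had -0.46 and -1.23 and Slc29a3 had -1.74 and -2.51. The protein-coding gene Cdh23 overlaps Vsir in its span on the other strand and shares 0 exon bases with it. Cdh23 had 81 counts in all PBS and 152 in all MoS2 libraries. Beside Cd28 (-3.003 and -3.78), Icos had -1.59 and -2.36 and the pseudogene Eif4a-ps4 had 1.33 and 0.56.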
